A study of Homo sapiens with 3 samples.

Results

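The genes described here are 7 chromatin regulators known as tumour suppressors of clear-cell renal cell carcinoma: PBRM1, BAP1, SETD2, KDM5C, KDM6A, ARID1A and SMARCA4. They were chosen by gene symbol and make up 7 of the 23284 genes in the deposited gene table. RNA was sequenced from OS-RC-2, an established cell line of clear-cell renal cell carcinoma, grown in RPMI medium with 10% fetal bovine serum and given no TGF-β. Each of the 3 libraries came from cells reverse-transfected with an siRNA and harvested 48 h after seeding. One siRNA was a negative control, another targeted Arkadia (the ubiquitin ligase RNF111) and the other targeted ESRP2, a splicing regulator, so there was 1 library per siRNA. The deposited tables name the libraries only q1, q2 and q3, and which siRNA each received is not given in the sources used here. The values below are therefore levels in 3 differently transfected OS-RC-2 cultures, with no comparison of siRNAs and no replicate of any of them. All levels are in FPKM, a density of sequenced fragments corrected for transcript length and library size, which is meant to make genes comparable. How evenly reads covered the transcripts was not examined, so differences in level between genes are approximate. The read depth of the libraries is unknown.

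In clear-cell renal carcinoma the short arm of chromosome 3 is commonly lost together with VHL, and PBRM1, BAP1 and SETD2 lie on that arm, so loss of the arm removes a copy of each. PBRM1, ARID1A and SMARCA4 encode subunits of SWI/SNF complexes, which use ATP to move nucleosomes. BAP1 removes ubiquitin from histone H2A, SETD2 trimethylates lysine 36 of histone H3, KDM5C demethylates lysine 4 and KDM6A demethylates lysine 27 of that histone. KDM5C and KDM6A are X-linked genes known to escape X inactivation. Mutations and copy number were not measured in these data.

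The cell line's labelled origin was checked against markers. All 8 renal and clear-cell carcinoma markers had a median of at least 1 FPKM, among them the renal transcription factor PAX8 at 45.7 to 52.7 FPKM and the hypoxia-induced carbonic anhydrase CA9 at 342.6 to 660.3 FPKM. By median the highest was the intermediate filament gene VIM at 3375 FPKM and the lowest the renal transcription factor PAX2 at 17.5 FPKM. Of these 8 markers, 5 had a highest library at least 1.5-fold their lowest: PAX2 at 2.06-fold, CA9 at 1.93-fold, VIM at 1.58-fold, the keratin KRT18 at 1.57-fold and the cadherin CDH2 at 1.55-fold. All 4 endothelial markers summed to at most 0.335 FPKM in any library, with medians from 0.024 FPKM for PECAM1 to 0.161 FPKM for VWF. The leukocyte markers PTPRC and CD3E were at or below 0.0885 FPKM in every library. CD68, which many non-leukocytes also express in lysosomes, was at 121.3 to 183.6 FPKM, a 1.51-fold spread. The median-ratio size factors of the 3 columns lay between 1.0004 and 1.009. Upper-quartile factors were 1.019, 0.973 and 1.008 in q1, q2 and q3. The summed FPKM was 644533, 582333 and 659314, so q2 was the lowest by both of these measures.

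The 7 genes differed in level far more than any one of them differed between libraries. BAP1, SMARCA4 and KDM5C formed an upper set, with every value between 24.2 and 35.3 FPKM, and ARID1A, SETD2, KDM6A and PBRM1 a lower set, with every value between 2.66 and 8.09 FPKM. All 7 were above 0 in every library and had a median of at least 1 FPKM. Among the 11701 genes that also did, called expressed genes here, BAP1 stood at the 78.6th percentile of median level and PBRM1 at the 22.7th. The median over the 7 genes was 7.75 FPKM, against 9.90 FPKM over all expressed genes.

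**Figure D1:**
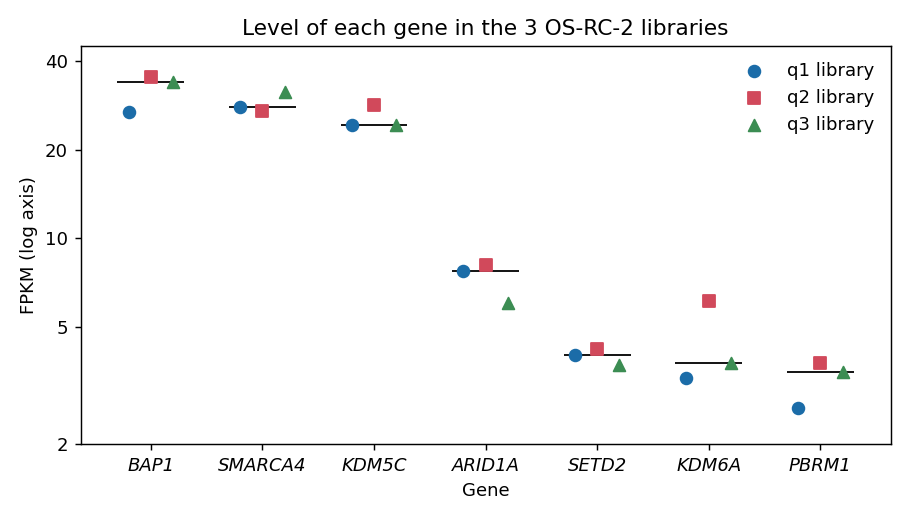
Level of each of the 7 genes (x axis) in FPKM on a log axis (y axis), with a symbol for each of the q1, q2 and q3 libraries and a line at the median. BAP1, SMARCA4 and KDM5C lie above 24 FPKM and the other genes below 8.1 FPKM, and the q2 symbol is the highest for every gene but SMARCA4.

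By median, the order was BAP1, SMARCA4, KDM5C, ARID1A, SETD2, KDM6A and PBRM1. The ranges of BAP1 and SMARCA4 overlapped, as did those of SMARCA4 and KDM5C, those of SETD2 and KDM6A, and those of KDM6A and PBRM1. Compared within each library, BAP1 and SMARCA4, SMARCA4 and KDM5C, and SETD2 and KDM6A changed order from library to library. KDM6A stayed above PBRM1 in each, at 3.36 against 2.66 FPKM in q1, 6.13 against 3.78 in q2 and 3.78 against 3.51 in q3. KDM5C and ARID1A did not overlap: the lowest KDM5C value was 24.2 FPKM and the highest ARID1A value 8.09 FPKM. ARID1A also stayed above SETD2, with a lowest value of 6.04 FPKM against a highest of 4.20 FPKM for SETD2. Its range overlapped that of KDM6A, which reached 6.13 FPKM in the q2 library, but ARID1A was above KDM6A within each library. PBRM1 was the lowest of the 7 in each library.

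Among the SWI/SNF genes, SMARCA4 encodes BRG1, an ATPase that drives these complexes. SMARCA4 was at 27.9 FPKM in the q1 library, 27.0 FPKM in q2 and 31.4 FPKM in q3. Its highest value was 1.16-fold its lowest, and it was the only member whose highest value was not in q2. ARID1A, the DNA-binding subunit of the BAF form of the complex, was at 7.75, 8.09 and 6.04 FPKM in q1, q2 and q3, a 1.34-fold spread with q3 below the other libraries. PBRM1 encodes polybromo, the bromodomain subunit that defines the PBAF form and, after VHL, a frequently mutated gene of this cancer. PBRM1 was at 2.66, 3.78 and 3.51 FPKM in q1, q2 and q3, a 1.42-fold spread with q1 the lowest.

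BAP1, the deubiquitinase, was at 26.7 FPKM in q1, 35.3 FPKM in q2 and 33.9 FPKM in q3, so that q1 stood below the other libraries and the spread was 1.32-fold. SETD2, the lysine 36 methyltransferase, varied least of the 7, at 4.03, 4.20 and 3.72 FPKM, a 1.13-fold spread. KDM5C was at 24.2 FPKM in q1, 28.4 FPKM in q2 and 24.3 FPKM in q3, a 1.17-fold spread. KDM6A was at 3.36 FPKM in q1, 6.13 FPKM in q2 and 3.78 FPKM in q3. The q2 value of KDM6A stood apart from the other libraries, and the spread of 1.83-fold was the largest of the 7. Without q2, the KDM6A spread was 1.13-fold.

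KDM6A was the only 1 of the 7 genes whose highest library reached 1.5-fold of its lowest, whereas 40.7% of all expressed genes did. The median spread was 1.32-fold over the 7 genes and 1.41-fold over all expressed genes. KDM6A's spread stood at the 80.8th percentile of expressed genes and SETD2's at the 9.75th. With the q2 library left out, 0 of the 7 genes reached 1.5-fold, and 19.7% of expressed genes did. Without q1 or without q3 the count stayed at 1 of 7, and the share of expressed genes was 21.6% and 25.0%. With no replicate library, whether any of these differences exceeds the error of a single library cannot be tested.

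**Figure D2:**
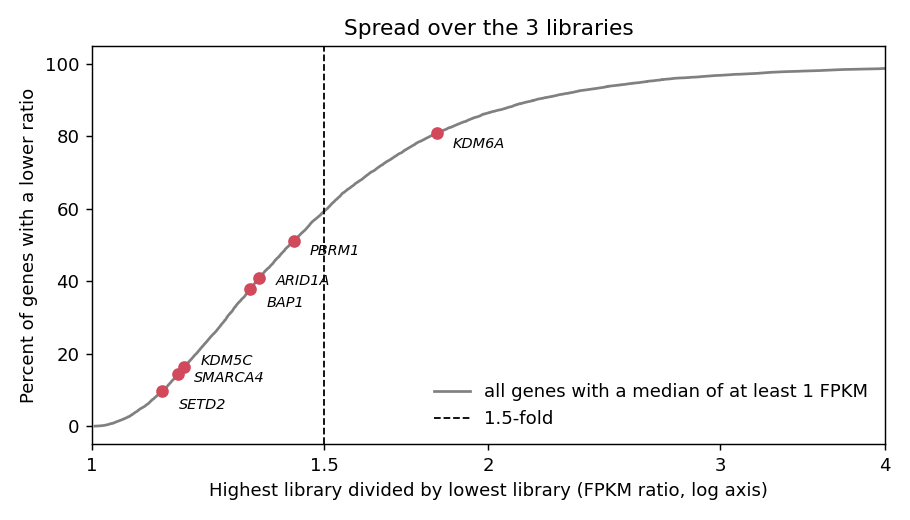
Percent of expressed genes with a lower ratio (y axis) against the ratio of the highest to the lowest library in FPKM (x axis, log scale, drawn to 4-fold). The grey curve holds the 11701 genes with a median of at least 1 FPKM, the points are the 7 genes, and the dashed line marks 1.5-fold, past which only KDM6A lies, at 1.83-fold.

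The q2 library was the highest of the 3 for 6 of the 7 genes, all except SMARCA4, whereas it was the highest for 32.8% of expressed genes. This count was noticed after the values were seen. The lead of q2 over the next library was small for SETD2, at 4.20 against 4.03 FPKM, and large for KDM6A, at 6.13 against 3.78 FPKM. The count was also 6 of 7 after scaling the columns by upper quartile or by median-ratio size factors, with 38.3% and 33.7% of expressed genes highest in q2. Which siRNA the q2 cells received is unknown, so the pattern cannot be attached to a treatment.

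Isoforms of a gene are told apart by the bases in which they differ, and those bases are shown here for the genes with more than 1 sizeable isoform that could be matched. BAP1, SETD2 and KDM6A had 1 isoform each in the deposited isoform table, ARID1A and KDM5C had 2, PBRM1 had 3 and SMARCA4 had 7. Of these 17 isoforms, 15 were matched by RefSeq identifier to a transcript of GENCODE release 29. The sequences are read from those transcripts, with coordinates on GRCh38, whereas the deposited loci are on hg19. In each line below, capitals mark a coding segment that some isoforms lack, and the 24 lower-case bases on either side are its neighbours in the spliced transcript, all 5′ to 3′. The SMARCA4 segments lie on the plus strand at chr19:11033767-11033865 (99 bases), chr19:11039458-11039553 (96 bases), chr19:11041298-11041306 (9 bases) and chr19:11058255-11058257 (3 bases), all in coding exons. They are shown because the 7 SMARCA4 isoforms differ in coding sequence by these segments alone.
SMARCA4 99-base exon: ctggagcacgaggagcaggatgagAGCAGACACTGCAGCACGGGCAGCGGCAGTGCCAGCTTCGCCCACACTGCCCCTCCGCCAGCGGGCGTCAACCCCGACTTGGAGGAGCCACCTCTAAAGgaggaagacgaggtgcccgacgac
SMARCA4 96-base exon: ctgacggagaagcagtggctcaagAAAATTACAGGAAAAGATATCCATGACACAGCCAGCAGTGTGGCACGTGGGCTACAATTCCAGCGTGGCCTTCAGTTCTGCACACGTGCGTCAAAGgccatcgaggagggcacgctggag
SMARCA4 9-base extension: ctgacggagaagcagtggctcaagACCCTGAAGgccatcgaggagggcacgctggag
SMARCA4 junction with neither the 96 nor the 9 bases: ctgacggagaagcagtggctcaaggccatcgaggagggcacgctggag
SMARCA4 3-base extension: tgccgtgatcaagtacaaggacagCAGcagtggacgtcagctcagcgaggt

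The 96-base exon and the 9-base extension sit between the same flanking bases, so the lines for them and for the bare junction begin and end alike. The 3-base extension is a CAG directly before another CAG. The 4 SMARCA4 isoforms from the annotated start site TSS3000 are the 4 combinations of the 9-base and the 3-base extension. Their annotated lengths of 5320, 5317, 5311 and 5308 bases differ by exactly these segments, by 12 bases at most. The split of FPKM between these isoforms is thus an estimate resting on very few bases, and its error is not given. Together they held 87.2% of SMARCA4 isoform FPKM in q1, 87.5% in q2 and 80.5% in q3.

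The leading SMARCA4 isoform was NM_001128847, which lacks the 9 bases and has the 3 bases, at 42.4%, 43.4% and 42.3% of the gene's isoform FPKM in q1, q2 and q3. Its share moved by 1.08 percentage points, which makes it the steadiest of the sizeable SMARCA4 isoforms. NM_001128848, which lacks both extensions, held 22.7% in q1, 27.6% in q2 and 10.6% in q3. NM_001128845, which has both, held 14.4%, 10.1% and 22.0%. These estimated shares moved in opposite ways, with q3 the lowest library for the isoform with neither extension and the highest for the isoform with both. Shares of a gene sum to a fixed total, so a rise in some entails a fall in others.

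Summed over all 7 SMARCA4 isoforms, the 9-base extension was present in 22.1% of FPKM in q1, 16.4% in q2 and 27.5% in q3. The 3-base extension was present in 69.6%, 66.0% and 83.9%. By these estimates most SMARCA4 FPKM lacked the 9 bases and held the 3 bases in every library. The 99-base exon, shared by NM_001128849, NM_003072 and NM_001128844, was in 12.8%, 12.5% and 19.5%. The 96-base exon, found only in NM_001128849, was in 12.8% in q1, 7.10% in q2 and 11.2% in q3. NM_003072 was at 0.000645 FPKM in q1, 1.47 FPKM in q2 and 2.60 FPKM in q3, and NM_001128844 stayed under 0.001 FPKM in all libraries. Both have the same coding sequence and start from another annotated site, TSS16986.

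KDM5C had 2 isoforms, and its segments are shown because their shares moved furthest between libraries among the 7 genes. NM_004187 has 4680 coding bases and NM_001146702 has 4137. The segments below lie on the minus strand at chrX:53220839-53220916 (78 bases), chrX:53218276-53218398 (123 bases) and chrX:53193773-53193781 (9 bases), and only NM_004187 has them. The first and the second are neighbouring coding exons, as the shared bases of their lines show, and the last extends the 3′ end of a coding exon.
KDM5C 78-base exon: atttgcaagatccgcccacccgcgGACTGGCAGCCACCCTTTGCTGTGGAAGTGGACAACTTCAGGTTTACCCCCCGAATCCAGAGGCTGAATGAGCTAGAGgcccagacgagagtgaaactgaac
KDM5C 123-base exon: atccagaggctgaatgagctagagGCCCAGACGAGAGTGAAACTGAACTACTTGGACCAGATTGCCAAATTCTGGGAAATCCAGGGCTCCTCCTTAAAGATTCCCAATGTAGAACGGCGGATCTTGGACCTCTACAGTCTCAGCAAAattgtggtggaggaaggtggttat
KDM5C 9-base extension: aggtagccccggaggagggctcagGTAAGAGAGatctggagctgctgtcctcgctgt

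NM_004187 also has coding blocks of 61 and 363 bases that NM_001146702 lacks, at chrX:53193437-53193497 and chrX:53192970-53193332, and NM_001146702 has 91 coding bases of its own at chrX:53192747-53192837. NM_004187 held 77.5% of KDM5C isoform FPKM in q1, 45.7% in q2 and 71.8% in q3. NM_001146702 held the other 22.5%, 54.3% and 28.2%. The q2 library thus stood apart and was the only 1 of the 3 in which the shorter isoform led. In FPKM, NM_001146702 was at 5.43, 15.4 and 6.85 in q1, q2 and q3, a 2.84-fold spread, and NM_004187 was at 18.7, 13.0 and 17.4. The gene as a whole had a spread of 1.17-fold, so the isoforms differed in opposite directions. A largest move of 31.8 percentage points, that of KDM5C, stood at the 72.5th percentile of the 5162 expressed genes with 2 or more isoforms.

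PBRM1 was split nearly evenly between isoforms of 7532 and 7472 bases from the same annotated start site. NM_018165 held 56.2%, 57.1% and 42.3% of PBRM1 isoform FPKM in q1, q2 and q3, and NM_181042 held 43.8%, 36.7% and 57.7%. NM_181042 led in q3 only, by a margin that rests on isoform levels of 1.48 and 2.03 FPKM. NM_018313, from a separate start site, was at 0.236 FPKM in q2 and at 0.00014 FPKM or less in the other libraries. The isoforms NM_018165 and NM_181042 had no match among the GENCODE transcripts, so the bases in which they differ are not shown.

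ARID1A was expressed almost wholly as the long isoform NM_006015, at 98.1%, 100% and 99.8% of isoform FPKM in q1, q2 and q3. The other isoform, NM_139135, lacks 651 coding bases at chr1:26774329-26774979 and was at most 0.145 FPKM. Of the 4 genes with 2 or more isoforms, PBRM1, KDM5C and SMARCA4 had an isoform whose share moved by 10 percentage points or more. Such a move was seen in 65.2% of expressed genes with 2 or more isoforms, and the median largest move over those genes was 17.0 points, so 3 of 4 is near the background. Without q3 the count was 1 of 4, KDM5C. The largest moves were 31.8 points for KDM5C, 21.0 for PBRM1, 17.0 for SMARCA4 and 1.87 for ARID1A.

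**Figure D3:**
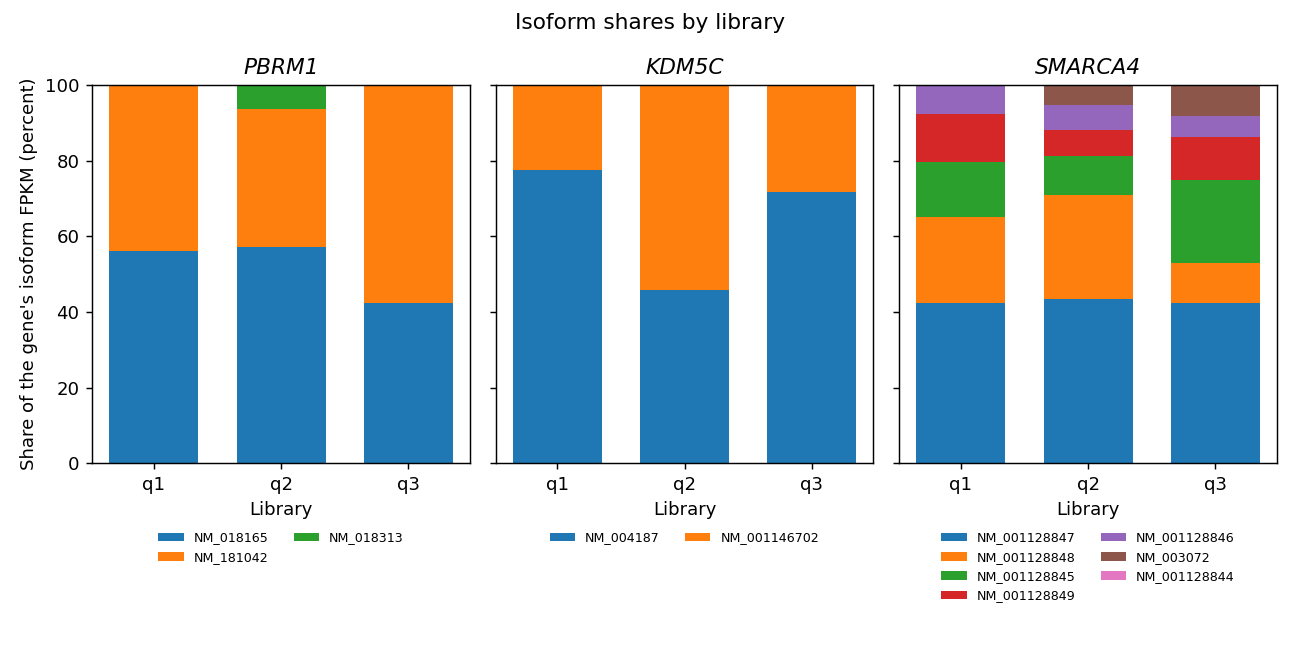
Share of each gene's isoform FPKM in percent (y axis) held by each isoform (colours) in the q1, q2 and q3 libraries (x axis) for PBRM1, KDM5C and SMARCA4. KDM5C NM_004187 is at 45.7% in q2, and SMARCA4 NM_001128847 stays between 42.3% and 43.4%.

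The 3 genes on chromosome 3 lie, in the deposited hg19 loci, at chr3:47057897-47205467 (SETD2), chr3:52435024-52444009 (BAP1) and chr3:52579367-52719866 (PBRM1). BAP1 and PBRM1 are 135 kb apart, and by median BAP1 was at 33.9 FPKM and PBRM1 at 3.51 FPKM. The table lists 7 genes between them, of which 3 had a median of at least 1 FPKM. These were C3orf78 at 73.4 FPKM, NT5DC2 at 102.6 FPKM and NISCH at 11.0 FPKM. The other loci are chr1:27022521-27108601 (ARID1A), chr19:11071597-11172958 (SMARCA4), chrX:53220502-53254604 (KDM5C) and chrX:44732422-44971845 (KDM6A). No other listed gene overlapped any of the 7 loci.

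Promoter windows from RefSeq (GRCh38.p14, 300 bases that include a gene's start) were found for 6 of the 7 genes, 8 windows in all. They held a median of 30 CG pairs, against 14 over 35116 windows of the same length. Those windows belong to 27305 genes and were not limited to expressed genes, as the 7 genes are. The highest was 55, at chr19:10960780-10961079 for a SMARCA4 start, and the lowest was 5, at chr19:10983874-10984173 for another SMARCA4 start. These counts describe the windows and were not set against expression.

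Partners and paralogues of the 7 proteins were read from 10 lists of 82 genes, of which 81 were found and 79 had a median of at least 1 FPKM. Of those 79, 18 (22.8%) had a spread of 1.5-fold or more, beside 40.7% of all expressed genes. The q2 library was the highest for 23 of them (29.1%), near the 32.8% of all expressed genes. The difference between the 7 genes and their partners was not tested. The 79 partners had a median level of 12.3 FPKM and a median spread of 1.32-fold.

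**Figure D4:**
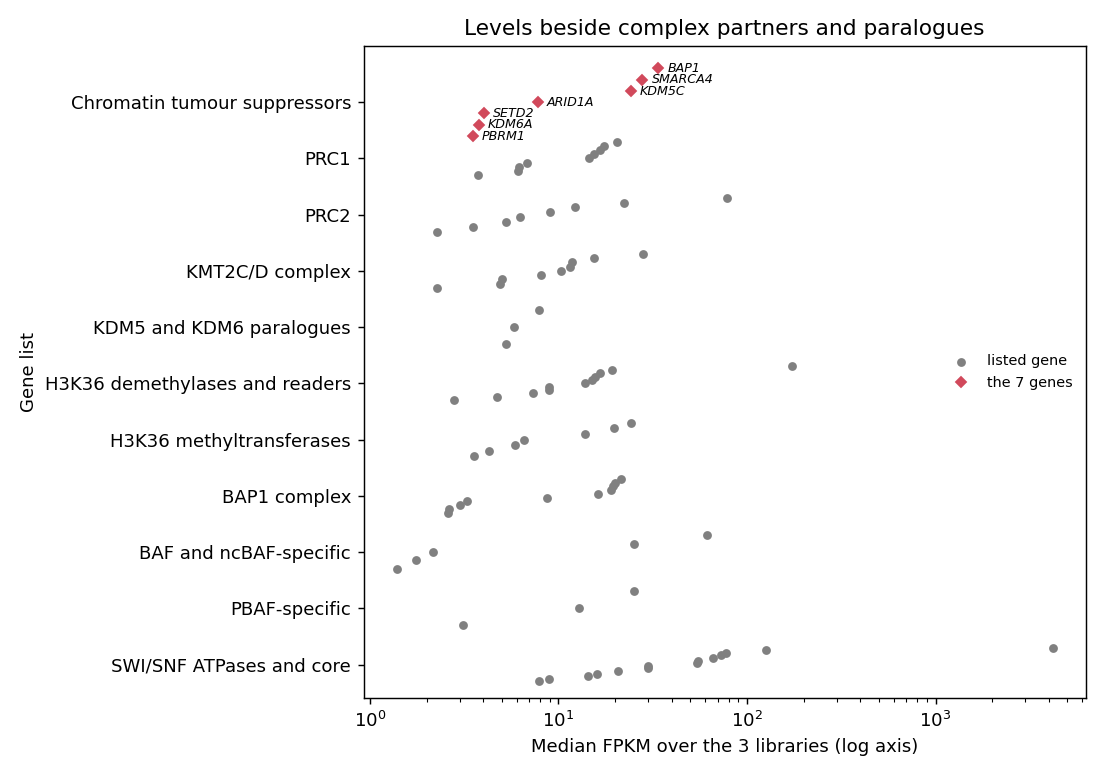
Median FPKM over the 3 libraries on a log axis (x axis) for each gene with a median of at least 1 FPKM, by gene list (y axis, small offsets separate the points), with the 7 genes as red diamonds. The SWI/SNF core list reaches 4183 FPKM through ACTB, and the 7 genes lie between 3.51 and 33.9 FPKM.

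In the SWI/SNF core list, all 14 genes had a median of at least 1 FPKM, from 7.84 FPKM for the scaffold subunit SMARCC1 to 4183 FPKM for ACTB, the cytoskeletal actin that is also a subunit. SMARCA2, the ATPase that can take the place of SMARCA4, was at 8.88, 10.5 and 7.59 FPKM in q1, q2 and q3, below SMARCA4 in each library. In this list 5 genes had a spread of 1.5-fold or more. The largest spreads were 2.75-fold for BCL7C (125.4, 105.1 and 288.7 FPKM), 2.47-fold for SMARCD1 (26.3, 55.2 and 65.0 FPKM) and 2.05-fold for BCL7A (10.8 to 22.1 FPKM), with q3 the highest library for each. SMARCD2 was at 48.4, 77.8 and 54.1 FPKM, a 1.61-fold spread with q2 the highest. All 3 PBAF-specific partners of PBRM1 had a spread under 1.5-fold: ARID2 had a median of 3.11 FPKM, close to the level of PBRM1, PHF10 of 12.8 FPKM and BRD7 of 25.0 FPKM. Among genes specific to BAF and its non-canonical form, 5 of the 6 found were at 1 FPKM or more. BRD9, a bromodomain subunit of the non-canonical form, was at 61.4, 39.9 and 66.6 FPKM, the only 1 of those 5 with a spread of 1.5-fold or more. DPF3 was the lowest, at 0.247 FPKM. ARID1B, the paralogue of ARID1A, was at 2.60, 2.16 and 2.09 FPKM, below ARID1A in each library.

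In the BAP1 list, 10 of 11 genes had a median of at least 1 FPKM, and 1 of them, OGT, had a spread of 1.5-fold or more. OGT, the O-GlcNAc transferase, was at 17.5, 27.0 and 19.9 FPKM. ASXL1, a cofactor that activates BAP1, was the highest of the list at 21.4 FPKM and lay below BAP1 in each library, at 22.2, 20.2 and 21.4 FPKM. ASXL2 was at 3.28 FPKM, and ASXL3 was listed at 0 in q1 and q2 and at 0.0127 FPKM in q3.

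Of 7 listed methyltransferases of the SETD2 group, 3 had a spread of 1.5-fold or more: SMYD2 at 1.56-fold, SETMAR at 1.51-fold and, only just, ASH1L at 4.47, 6.72 and 6.60 FPKM. SMYD2 was the highest at 24.3 FPKM and SETMAR the lowest at 3.58 FPKM. NSD1, a dimethyltransferase of lysine 36, had a median of 4.27 FPKM, near the 4.03 FPKM of SETD2. Of 11 demethylases and readers of that mark, 2 had such a spread, PSIP1 at 1.69-fold and KDM2A at 1.53-fold. MORF4L1, a reader protein, was the highest at 172.7 FPKM and KDM4C, a demethylase, the lowest at 2.81 FPKM.

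KDM5C was higher than its listed paralogues KDM5A and KDM5B in each library. KDM5A was at 3.78, 5.54 and 5.28 FPKM and KDM5B at 6.87, 7.85 and 8.22 FPKM. KDM6B, the listed paralogue of KDM6A, was at 5.50, 5.78 and 6.28 FPKM, so KDM6A was below it in q1 and q3 and above it in q2. None of these 3 paralogues reached a 1.5-fold spread. Other paralogues of KDM5C and KDM6A were not in the list and were not examined. How reads shared between paralogues were assigned is not given in the sources used here.

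KDM6A works in the KMT2C and KMT2D complexes, of whose 9 listed genes 3 had a spread of 1.5-fold or more. These were PAXIP1 at 1.79-fold, highest in q1, C16orf53 (now PAGR1) at 1.60-fold, highest in q1, and DPY30 at 1.55-fold, highest in q2 as KDM6A was. DPY30 was the highest of the list at 28.1 FPKM and MLL3 (KMT2C) the lowest at 2.28 FPKM. The complex PRC2 writes the lysine 27 methylation that KDM6A removes, and 1 of its 8 listed genes, the methyltransferase EZH2, had a spread of 1.5-fold or more, at 16.3, 12.3 and 10.4 FPKM. RBBP7 was the highest of that list at 78.7 FPKM and JARID2 the lowest at 2.26 FPKM. PRC1 adds the ubiquitin that BAP1 removes. Of its 9 listed genes, PCGF2 at 1.79-fold and CBX7 at 1.72-fold had a spread of 1.5-fold or more, RING1 was the highest at 20.5 FPKM and RNF2 the lowest at 3.74 FPKM.

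For each of the 7 genes the listed gene with the most similar pattern was found, as the smallest Euclidean distance between log2(FPKM + 0.1) values centred over the 3 libraries, among 81 candidates. The nearest was HCFC1 for KDM5C (distance 0.011), ASXL2 for SMARCA4 (0.020), DPF1 for both BAP1 (0.040) and PBRM1 (0.040), RBBP7 for ARID1A (0.050) and KDM1B for SETD2 (0.050). KDM6A was the least closely matched, with SMARCD2 at a distance of 0.134. The values were not scaled by spread before the distance was taken, and KDM6A had the largest spread of the 7, at 1.83-fold. With 3 libraries such a likeness is a description only.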

How the data were processed

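Per the labels' protocols, poly(A) RNA was captured on beads and read on an Ion PI system. The authors deposited gene and isoform tables in FPKM, per the file headers. Cuffdiff, Cufflinks 2.1.1, Bowtie2 2.1.0, TopHat2 2.0.10 and the build hg19 stand in the submitters' processing notes. The role and settings of each, strand use and any scaling between libraries are not given in the sources used here. The descriptions of all 3 samples name both tables, so the columns q1, q2 and q3 were taken as these libraries together, and none was assigned to an siRNA. The 18 other per-library columns (interval bounds and status) were not used. Those of the 7 genes were seen when the format was inspected and entered no step, so the error of single values is not given.

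Median, range and the highest-to-lowest ratio were computed with Python 3.11.15 and pandas 2.3.3. The ratio and the isoform shares were also run on simulated data with known answers. That checks the code and not the noise of these libraries. A ratio of 1.5, a median of 1 FPKM for expressed genes and 10 percentage points of isoform share were the thresholds. Shares are isoform FPKM over the gene's isoform sum. Alternatives covered scaling, pseudocount, denominator and left-out libraries. No test was run. A listed marker gene is not reported here. The members and lists were chosen with earlier results of these data known. Text names all 7 genes, each list's highest and lowest gene and up to 4 with a ratio of 1.5 or more, leading isoforms, isoforms of at least 10% median share and the nearest listed gene. Other partners, isoforms and neighbouring genes named were chosen after their values were seen.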

Additional observations from a re-analysis of the deposited data

How the results depend on the processing

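No siRNA comparison was run, because no column was assigned to an siRNA, and no paired analysis was possible because each siRNA has 1 library. The median level of the 7 genes, 7.75 FPKM, lay between 6.89 and 7.92 FPKM under every alternative run. For 3 values, the mean, or the median with 1 left out, always stays within their SD of the median. The isoform sums equalled the gene levels, so these alternatives are no test of stability. The 7 genes' median spread of 1.32-fold lay between 1.13 and 1.17-fold with 1 library left out, since the ratio then covers fewer libraries. It moved by less than the libraries' relative SD under the scalings and pseudocounts run. The count of genes with a spread of 1.5-fold or more was 1, and it was 0 at 2-fold (13.5% of expressed genes) and between 0 and 1 with 1 library left out, 0 without q2. The median share of the leading isoform over the 4 genes with 2 or more isoforms, 64.0%, lay between 54.2% without q1 and 61.9% without q2. The count of genes with a share move of 10 points or more was 3, and between 1 and 3 with 1 library left out. It was 1 without q3, and 2 at 20 points. The count highest in q2 and the alternatives of the share count were chosen after seeing the data. Of 109 single-gene and background values under the alternatives, 98 moved by less than the libraries' spread (for the background, by less than 1.5 times) and 11 by more. Many of the 98 are levels, or shares with 1 library left out, that could not move further. The count is therefore no measure of stability. All spreads rest on 3 libraries of unknown depth.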
